A study of Mus musculus with 24 samples.

Results

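The 10 genes described here encode Toll-like receptors of the mouse: Tlr1, Tlr2, Tlr4, Tlr6, Tlr7, Tlr8, Tlr9, Tlr11, Tlr12 and Tlr13. They were chosen by name, and all 10 were among the 45792 genes of the deposited tables and among the 14227 that passed the filter on low values. RNA sequencing was done on liver cells sorted as CD11c+ MHC class II+ from female C57BL/6 mice with steatohepatitis brought on by 2 weeks of a methionine- and choline-deficient diet. Every mouse had received liposomes carrying the lipid dye DiI by vein 24 hours before, either loaded with curcumin, a plant polyphenol, or empty. Sorting by dye split each liposome arm, which gave 3 libraries for each of 4 groups: curcumin DiI-positive, curcumin DiI-negative, empty DiI-positive and empty DiI-negative. There was no group on a normal diet and none without liposomes, so diet and injection are shared by all 12 libraries.

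Toll-like receptors are membrane proteins that bind molecules of microbes through leucine-rich repeats and signal through a cytoplasmic TIR domain. Tlr1, Tlr2, Tlr4 and Tlr6 act mainly at the cell surface, while Tlr7, Tlr8, Tlr9, Tlr11, Tlr12 and Tlr13 act in endosomes, which they reach with the chaperone Unc93b1. Most of them signal through the adaptor Myd88 to NF-kB and to interferon regulatory factors. In the liver, dendritic cells, Kupffer cells and B cells all carry sets of these receptors and meet gut-derived microbial products from the portal blood.

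The labels call the sorted cells liver dendritic cells, and markers of other cell types were also detected in them. The genes of the gate were high throughout: Itgax, which encodes CD11c, ranged over 12.01 to 13.24 in DiI-positive and 12.95 to 13.48 in DiI-negative libraries on the deposited log2 scale. Dendritic cell markers were present, with Cd209a at 11.67 to 12.97 in DiI-positive and 13.74 to 14.42 in DiI-negative libraries. Kupffer cell markers, however, rose in DiI-positive cells for 11 of 12 genes, with list means of 10.98 to 13.12 in DiI-positive and 9.60 to 10.16 in DiI-negative libraries (limma, both liposomes averaged). B cell markers rose for 10 of 10 genes, with list means of 12.24 to 13.37 in DiI-positive and 11.50 to 12.13 in DiI-negative libraries. Markers of type 2 conventional dendritic cells fell for 4 of 7 genes (list means 9.69 to 10.35 in DiI-positive and 10.63 to 10.94 in DiI-negative libraries). Those of classical monocytes fell for 5 of 6 genes (11.30 to 11.57 in DiI-positive and 11.73 to 12.72 in DiI-negative libraries). Those of NK and T cells fell for 8 of 10 genes (8.22 to 8.65 in DiI-positive and 9.39 to 9.85 in DiI-negative libraries). In this averaged contrast 12.1% of all genes tested rose or fell by the same test. Of sinusoidal endothelial cell markers 2 of 6 rose. Of nonclassical monocyte markers 2 rose and 1 fell of 6, and of mature migratory dendritic cell markers 1 rose and 1 fell of 5. Type 1 conventional and plasmacytoid dendritic cell markers are given below. Neutrophil and hepatocyte markers gave 0 calls. No marker was listed at 0 in all libraries. A relative depth index was 0.791 to 1.10 in DiI-positive and 0.989 to 1.27 in DiI-negative libraries. These shifts in cell type markers run along the same contrast as the receptor results below, and their part in those results was not tested. In bulk samples, fewer cells of a type and less RNA per cell cannot be told apart.

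The receptors differed widely in level. Compared per kilobase of exon, Tlr2 stood highest with a mean log2 value per kilobase of 10.03 over the 12 libraries, followed by Tlr1 at 9.89 and Tlr13 at 9.59. Their order was not fixed, since Tlr2 exceeded Tlr1 in 7 of 12 libraries and Tlr1 exceeded Tlr13 in 7 of 12. Tlr7 followed at 8.45, below Tlr13 in 12 of 12 libraries. Tlr12 (7.76), Tlr8 (7.69), Tlr6 (7.65) and Tlr4 (7.61) formed a group per kilobase in which each was above the next in only 5 to 8 of 12 libraries. Tlr11 had a mean of 6.89 per kilobase, and Tlr9 was far below the rest at 2.99 per kilobase, under Tlr11 in 12 of 12 libraries. The plain log2 value of Tlr9, 4.79 on average, was above that of only 7.76% of the genes tested.

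The members also differed in how much they varied. Tlr11 had an SD of 0.998 over the 12 libraries on the log2 scale, larger than that of 99.6% of the genes tested. The other 9 members had SDs of 0.198 for Tlr9 to 0.372 for Tlr1. Tlr13 was among the steadiest, with an SD of 0.213 and all libraries within 11.36 to 11.99.

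**Figure D1:**
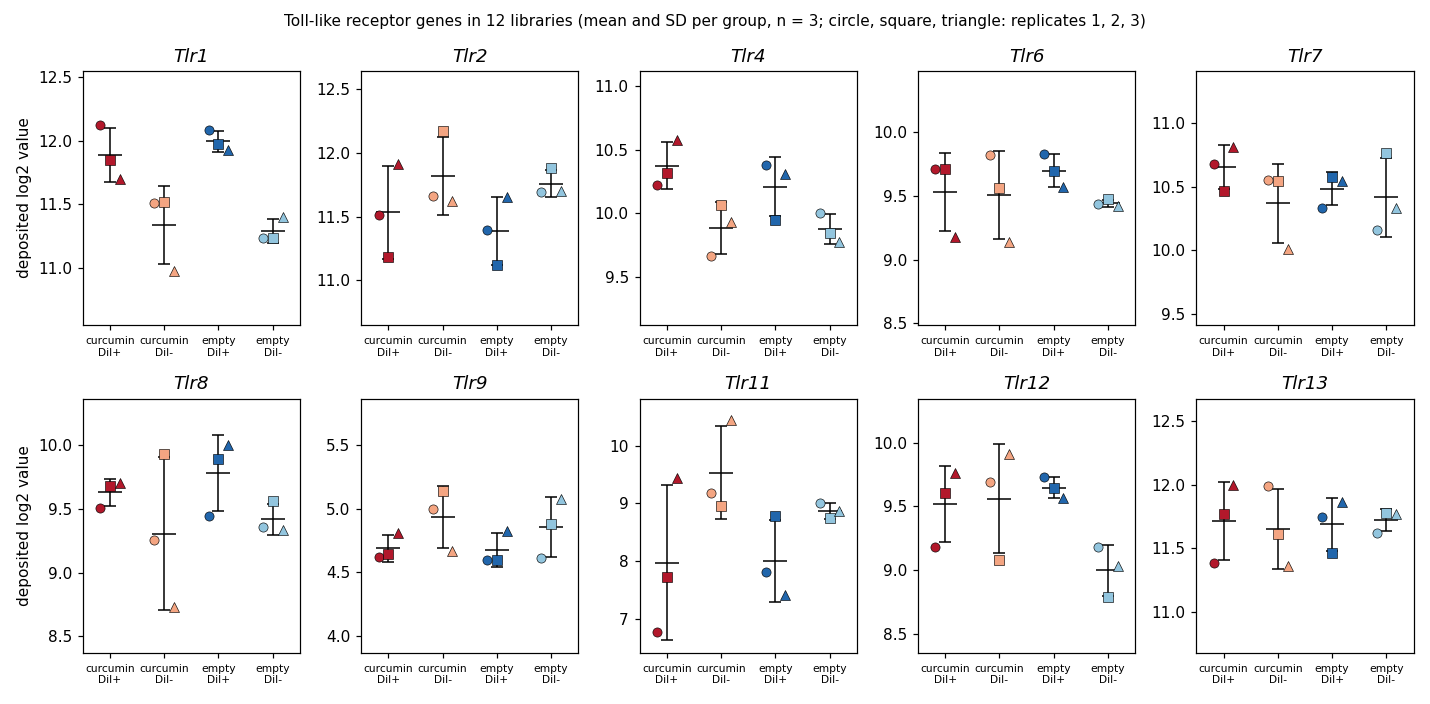
Deposited log2 values (vertical axis) of the 10 Toll-like receptor genes in each library, by group of 3 libraries (horizontal axis), with the mean as a long dash and the SD as a bar. Panels span 2 log2 units except that of Tlr11, which spans more. Tlr1 is the only member whose 6 DiI-positive libraries (11.70 to 12.12) all lie above its 6 DiI-negative libraries (10.98 to 11.52).

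The first question the sort allows is what set cells with liposome dye apart from dye-free cells of that gate. A gene passed where a limma fit to all genes gave a Benjamini-Hochberg adjusted p under 0.05, and differences are DiI-positive minus DiI-negative on the deposited log2 scale, which shrinks those of low genes. After empty liposomes 1 of the 10 members passed the test, Tlr1, which was higher in DiI-positive cells, where 2.95% of all genes tested passed. After curcumin liposomes 0 of 10 passed by limma, where 3.07% of all genes passed. At an unadjusted limma p under 0.05 there were 3 of 10 members and 2596 of the 14227 genes tested. With both liposomes averaged, 6 libraries against 6, Tlr1 and Tlr4 passed and both were higher in DiI-positive cells. That is 2 of 10 members where 12.1% of all genes passed, a share close to the background for a list of this size. The median difference of the members in this averaged contrast was 0.16 on the log2 scale, against 0.01 for all genes tested, and 7 of 10 were positive. The median size of the difference, sign aside, was 0.32 for the members and 0.14 for all genes tested. These medians were not matched for level, on a scale that shrinks differences of low genes. The mean value of Tlr11 was above that of 46.6% of the genes tested and that of Tlr9 above 7.76%. For the other members these shares were 59.4% to 91.2%.

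Tlr1 pairs with Tlr2 to bind triacylated bacterial lipopeptides. The gene (Ensembl ENSMUSG00000044827) lies on the minus strand of chromosome 5 at 64924679 to 64933563 in GRCm38, 18467 bases from its close relative Tlr6 (ENSMUSG00000051498, 64952031 to 64960097, same strand, both protein coding), which pairs with Tlr2 to bind diacylated lipopeptides. The 250 bases upstream of the RefSeq start of both neighbours are shown, as only Tlr1 passed the test. They are chr5:64933559-64933808 for Tlr1 and chr5:64960049-64960298 for Tlr6 (GRCm38.p6, minus strand, written 5′ to 3′ from RefSeq), and the capitals mark the PU.1 motif GAGGAAG.
Tlr1: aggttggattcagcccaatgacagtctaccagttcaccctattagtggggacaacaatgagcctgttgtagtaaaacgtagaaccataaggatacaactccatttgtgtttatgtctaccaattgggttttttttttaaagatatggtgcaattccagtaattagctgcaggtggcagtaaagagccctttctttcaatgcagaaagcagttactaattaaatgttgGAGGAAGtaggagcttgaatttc
Tlr6: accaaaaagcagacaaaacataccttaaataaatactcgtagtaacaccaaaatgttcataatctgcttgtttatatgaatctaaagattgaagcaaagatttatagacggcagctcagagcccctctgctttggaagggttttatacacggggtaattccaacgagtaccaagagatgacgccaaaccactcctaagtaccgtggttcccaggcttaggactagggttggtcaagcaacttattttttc
The motif begins 23 bases upstream of the start in the Tlr1 window. On both strands of all 32851 promoter windows of this length, GAGGAAG was found in 10.6%. The other motifs searched, GGGANNNNCC for NF-kB (17.6% of windows), TGANTCA for AP-1 (6.75%) and GAAANNGAAA for interferon regulatory factors (2.98%), were found in neither window, and a match or its absence in these letters is a description only. GAGGAAG was also found in the windows of Tlr9, Tlr11 and Tlr13, which did not pass. Tlr4, which passed with both liposomes averaged, had no window.

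Tlr1 read 12.12, 11.85 and 11.70 in curcumin DiI-positive libraries, against 11.51, 11.52 and 10.98 in curcumin DiI-negative libraries. After empty liposomes it read 12.08, 11.98 and 11.93 in DiI-positive libraries, against 11.24, 11.24 and 11.40 in DiI-negative libraries. The 6 DiI-positive libraries all lay above the 6 DiI-negative libraries, a separation of either direction found for 6.04% of all genes tested. The difference was 0.63 ± 0.11 (log2, SE) with both liposomes averaged, a 1.55-fold higher level, with a limma adjusted p of 0.00387. It was 0.70 ± 0.15 after empty liposomes (limma adjusted p = 0.0336) and 0.55 ± 0.15 after curcumin liposomes (limma adjusted p = 0.0740). The averaged call held in every alternative run, also with the depth index as a covariate (limma adjusted p = 0.0496), but the call after empty liposomes was lost when any 1 of the 6 libraries was left out, with limma adjusted p of 0.0637 to 0.121 and differences of 0.66 to 0.76. After curcumin liposomes Tlr1 passed when DiI-positive replicate 3 was left out (0.65, limma adjusted p = 0.0382). In that fit 1088 of all genes passed, against 437 with all libraries.

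Tlr6 did not pass the test in any of these comparisons. Its 6 DiI-positive libraries ranged over 9.18 to 9.83 and its 6 DiI-negative libraries over 9.14 to 9.82, so the gates overlapped almost fully. The averaged difference was 0.14 ± 0.13 (log2, SE), with a 95% interval of -0.15 to 0.43. Within each library, Tlr1 minus Tlr6 was 2.33 ± 0.13 log2 units in DiI-positive cells and 1.84 ± 0.11 in DiI-negative cells (SD, n = 6 each), and the ranges, 2.14 to 2.52 and 1.69 to 1.98, did not meet. As Tlr1 separated the gates by itself, this is not a second result beside it. No share over other gene pairs was computed. The neighbours share sequence: 13.6% of the 50-base windows of Tlr1 transcripts also occur in Tlr6, and 12.3% of those of Tlr6 in Tlr1, so reads from these stretches could have been dropped or split between them. No other member shared a 50-base window with a member.

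Tlr2 (chromosome 3, 83836272 to 83841767, minus strand), the partner of Tlr1 and Tlr6, did not pass. It read 11.51, 11.18 and 11.91 in curcumin DiI-positive libraries, against 11.67, 12.17 and 11.62 in curcumin DiI-negative libraries, and the groups overlapped. After empty liposomes it read 11.39, 11.12 and 11.66 in DiI-positive libraries, against 11.70, 11.88 and 11.70 in DiI-negative libraries, with no overlap. The averaged difference of -0.33 ± 0.14 (log2, SE) did not pass, with a limma adjusted p of 0.170. It passed at a limma adjusted p of 0.0488 and a difference of -0.47 with curcumin replicate 3 of both gates left out.

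Tlr4 (chromosome 4, 66827584 to 66930284, plus strand) recognizes bacterial lipopolysaccharide together with its co-receptor Ly96. It read 10.22, 10.32 and 10.58 in curcumin DiI-positive libraries, against 9.66, 10.07 and 9.93 in curcumin DiI-negative libraries, with no overlap. After empty liposomes it read 10.38, 9.95 and 10.31 in DiI-positive libraries, against 10.01, 9.85 and 9.77 in DiI-negative libraries. There replicate 2 of the DiI-positive group lay below the highest DiI-negative library. Tlr4 was 0.41 ± 0.11 log2 units higher in DiI-positive cells with both liposomes averaged (1.33-fold, limma adjusted p = 0.0315). The difference was 0.49 ± 0.15 after curcumin liposomes (limma adjusted p = 0.114) and 0.33 ± 0.15 after empty liposomes (limma adjusted p = 0.285), and neither passed alone. The averaged call rested on the full set of libraries: it held in 4 of the 12 fits that left out 1 library, with limma adjusted p of up to 0.0763 over those fits and differences of 0.35 to 0.48. It was lost without replicate 2 or 3 of curcumin DiI-positive, 1 or 3 of curcumin DiI-negative, 1 or 3 of empty DiI-positive, or 2 or 3 of empty DiI-negative cells. With the depth index as a covariate the difference was larger, at 0.55, while the limma adjusted p was 0.0532.

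**Figure D2:**
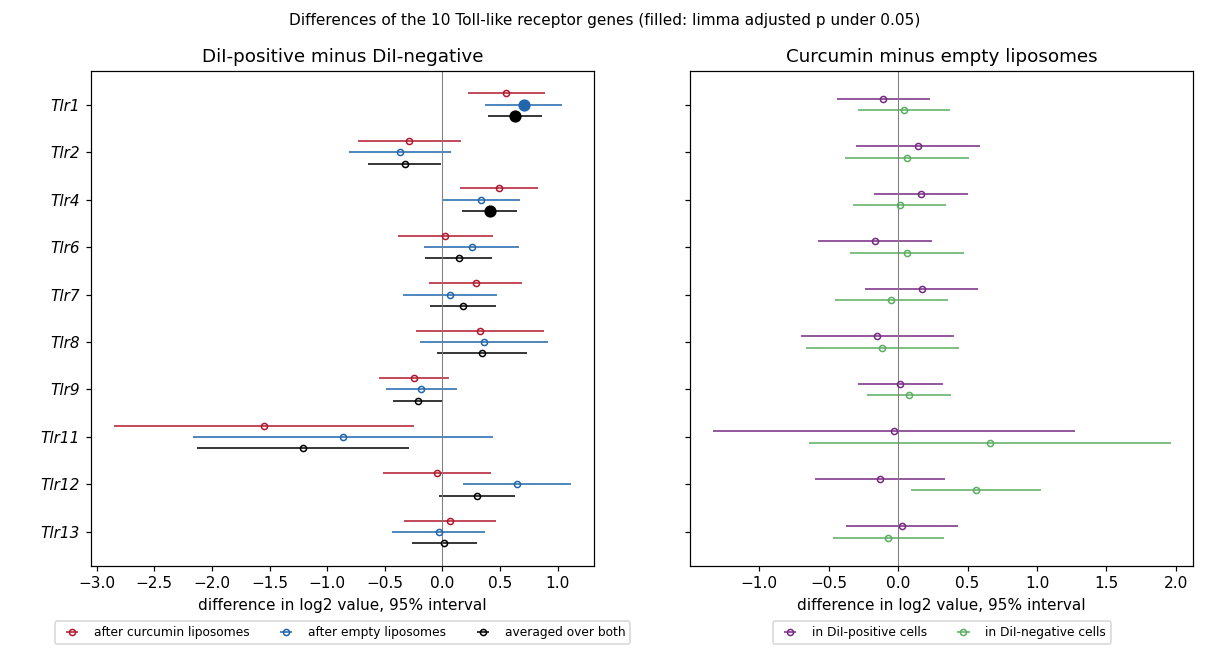
Differences in log2 value (horizontal axes) with 95% intervals for the 10 genes (rows), DiI-positive minus DiI-negative on the left and curcumin minus empty liposomes on the right. Filled points passed the limma test: Tlr1 after empty liposomes (0.70) and averaged (0.63), and Tlr4 averaged (0.41). No point on the right passed.

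Among the endosomal receptors of nucleic acids, none passed. Tlr7 (chromosome X, 167304929 to 167330558, minus strand) binds single-stranded RNA. Tlr8, its neighbour 40599 bases away (167242696 to 167264329, minus strand), is a sensor of RNA breakdown products in human cells. Tlr7 ranged over 10.33 to 10.82 in DiI-positive and 10.01 to 10.76 in DiI-negative libraries, with an averaged difference of 0.18 ± 0.13 (log2, SE, limma adjusted p = 0.433). Tlr8 ranged over 9.44 to 10.01 in DiI-positive and 8.73 to 9.93 in DiI-negative libraries. Its averaged difference was 0.34 ± 0.18 (log2, SE, limma adjusted p = 0.249). Both extremes of the DiI-negative range of Tlr8 came from curcumin libraries, replicate 3 at 8.73 and replicate 2 at 9.93, and without that replicate 2 the averaged difference was 0.50 with a limma adjusted p of 0.0431.

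Tlr13 (chromosome X, 106143204 to 106160493, plus strand), a receptor for bacterial ribosomal RNA that humans lack, showed the smallest averaged difference of the 10 members. It ranged over 11.39 to 11.99 in DiI-positive and 11.36 to 11.99 in DiI-negative libraries. The averaged difference was 0.01 ± 0.13 (log2, SE), with a 95% interval of -0.27 to 0.30.

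Tlr9 (chromosome 9, 106222598 to 106226883, plus strand), the receptor for unmethylated CpG DNA, was close to the lower limit of the filter in every library. It ranged over 4.60 to 4.83 in DiI-positive and 4.61 to 5.14 in DiI-negative libraries, with an averaged difference of -0.21 ± 0.10 (log2, SE, limma adjusted p = 0.193). On a shrunken log2 scale a difference of so low a gene is understated.

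Tlr11 and Tlr12 are mouse endosomal receptors that bind profilin of Toxoplasma, and Tlr11 is known in mouse from type 1 conventional dendritic cells. Tlr11 lies on the plus strand of chromosome 14 at 50357914 to 50363663 (GRCm38). Its upstream window, chr14:50357664-50357913 (GRCm38.p6, plus strand, from RefSeq), is shown because Tlr11 was the most variable member. It is the only one of the 8 members with a window in the table that held the interferon regulatory factor motif, GAAANNGAAA, which 2.98% of all windows hold. The capitals mark GAGGAAG and, after it, GAAACTGAAA.
Tlr11: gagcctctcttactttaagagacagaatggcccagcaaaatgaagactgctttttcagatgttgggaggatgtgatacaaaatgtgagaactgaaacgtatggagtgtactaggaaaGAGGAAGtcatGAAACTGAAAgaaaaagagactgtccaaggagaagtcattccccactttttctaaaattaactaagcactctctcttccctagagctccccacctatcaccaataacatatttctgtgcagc
Their positions are 133 and 122 bases upstream of the start, without overlap.

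Tlr11 read 6.78, 7.72 and 9.43 in curcumin DiI-positive libraries, against 9.18, 8.96 and 10.45 in curcumin DiI-negative libraries. After empty liposomes it read 7.82, 8.79 and 7.42 in DiI-positive libraries, against 9.01, 8.74 and 8.86 in DiI-negative libraries. In each liposome group a single DiI-positive library reached into the DiI-negative range, replicate 3 after curcumin and replicate 2 after empty liposomes. The averaged difference was -1.21 ± 0.42 (log2, SE, 95% interval -2.13 to -0.29), larger in size than that of any other member, and did not pass (limma adjusted p = 0.0865). Curcumin DiI-positive replicate 3 decided this call: without it the averaged difference was -1.57 with a limma adjusted p of 0.00839. After curcumin liposomes alone the difference was -1.55 ± 0.59 (limma adjusted p = 0.188) with all libraries and -2.28 (limma adjusted p = 0.0185) without that library. Calls over all genes rose as well without it, from 1722 to 2244 averaged and from 437 to 1088 after curcumin liposomes.

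Markers of type 1 conventional dendritic cells were highest in the 2 libraries where Tlr11 was highest, and did not follow it in every group. The mean of 8 such markers was highest in curcumin DiI-negative replicate 3 (11.69) and next in curcumin DiI-positive replicate 3 (11.32). Xcr1, the chemokine receptor that defines these cells, read 10.09 in curcumin DiI-positive replicate 3, against 7.92 and 7.49 in the other libraries of that group. It read 10.72 in curcumin DiI-negative replicate 3, against 9.78 and 8.35 in the others. Over all libraries the list mean ranged over 10.02 to 11.32 in DiI-positive and 10.41 to 11.69 in DiI-negative cells, and 2 of its 8 genes fell while 1 rose in the averaged contrast by limma. In empty DiI-positive cells the order differed: Tlr11 was highest in replicate 2 (8.79), while the list mean (10.34) and Xcr1 (8.23) were highest in replicate 1. In curcumin DiI-positive cells Tlr11 was lowest in replicate 1 and the list mean in replicate 2. Curcumin replicate 3 also stood apart on other lists. Its sinusoidal endothelial cell markers had a mean of 10.85 in DiI-positive and 8.35 in DiI-negative cells, against 6.78 to 8.01 in the other 10 libraries. Its B cell markers had a mean of 12.24 in DiI-positive cells, against 13.26 and 13.30 in the other libraries of that group. The part of these markers in the Tlr11 result was not tested.

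**Figure D3:**
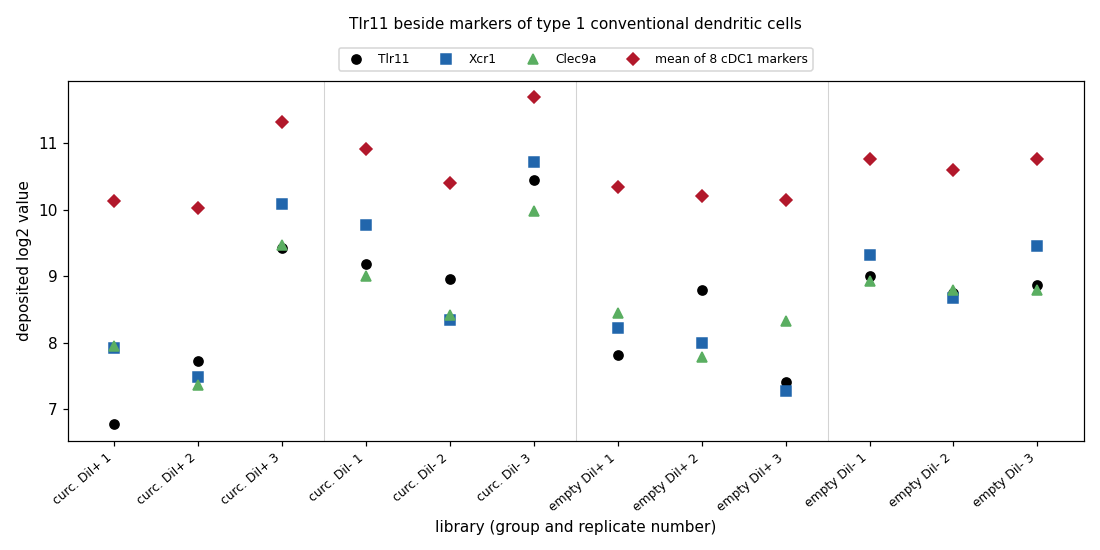
Deposited log2 values (vertical axis) of Tlr11, Xcr1, Clec9a and the mean of 8 markers of type 1 conventional dendritic cells (cDC1) in each of the 12 libraries (horizontal axis). Replicate 3 of the curcumin groups holds the highest Xcr1 values, 10.09 in DiI-positive and 10.72 in DiI-negative cells, beside Tlr11 at 9.43 and 10.45.

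Tlr12 (chromosome 4, 128615443 to 128618619, minus strand) had its gates apart after empty liposomes alone. After empty liposomes it read 9.73, 9.65 and 9.56 in DiI-positive libraries, against 9.18, 8.79 and 9.03 in DiI-negative libraries, with no overlap and a difference of 0.65 ± 0.21 (log2, SE, limma adjusted p = 0.133). After curcumin liposomes it read 9.18, 9.61 and 9.76 in DiI-positive libraries, against 9.69, 9.08 and 9.91 in DiI-negative libraries, with a difference of -0.04 ± 0.21 (limma adjusted p = 0.936). Neither passed, nor did the test of whether these differ from each other, at -0.69 ± 0.30 (unadjusted p = 0.0415, limma adjusted p = 0.999). In the fit on the 6 empty liposome libraries alone Tlr12 passed at a limma adjusted p of 0.0484.

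Libraries of both gates did not overlap for 4 of 10 members after empty liposomes (Tlr1, Tlr2, Tlr6 and Tlr12), where 26.9% of all genes tested did not. After curcumin liposomes this held for 2 of 10 (Tlr1 and Tlr4), where 20.6% of all genes did not. In a list of 10 these shares are near their backgrounds.

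The next question is whether loading the liposomes with curcumin changed the receptors. By limma 0 of 10 members passed in DiI-positive cells and 0 of 10 in DiI-negative cells, as did 0% of all genes tested in each. At an unadjusted limma p under 0.05 there were 0 of 10 members and 1165 of the 14227 genes tested in DiI-positive cells. In DiI-negative cells there were 1 of 10 members and 469 of the 14227 genes. In 0 of 10 members did the curcumin and empty libraries separate, in either gate, where 10% of all genes tested did in DiI-positive and 11.2% in DiI-negative cells. The interaction of liposome and gate also gave 0 members and 0% of all genes, with 1 of 10 members and 527 of 14227 genes at an unadjusted p under 0.05.

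The intervals show what sizes remain possible. In DiI-positive cells, curcumin minus empty was -0.11 for Tlr1 (log2, 95% interval -0.44 to 0.23), 0.14 for Tlr2 (-0.30 to 0.59) and 0.16 for Tlr4 (-0.17 to 0.50). For Tlr11 the interval was much wider, -1.33 to 1.27 around -0.03. The median over the 10 members was -0.01 in DiI-positive and 0.05 in DiI-negative cells, and 0.00 over all genes tested in both. In DiI-negative cells Tlr12 had the only unadjusted p under 0.05 among the members, at 9.08 to 9.91 after curcumin and 8.79 to 9.18 after empty liposomes. That difference was 0.56 ± 0.21 (log2, SE, 95% interval 0.09 to 1.03), with an unadjusted p of 0.0225 in limma that did not survive adjustment. Curcumin and empty libraries of Tlr12 overlapped in that gate, as curcumin replicate 2 read 9.08 and empty replicate 1 read 9.18.

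The machinery around the receptors was followed through 66 genes in 7 lists. In the averaged contrast of gates 6 rose and 8 fell in DiI-positive cells by limma, with a median of 0.02 log2 units, beside 12.1% of all genes called. After empty liposomes 2 rose and 0 fell, after curcumin liposomes 4 rose and 1 fell, and curcumin against empty liposomes gave 0 in both gates. The genes called in the averaged contrast lay in 6 of the 7 lists. These counts moved when 1 library was left out, and so did the calls over all genes. After empty liposomes they were 0 to 1, where 85 to 263 of all genes passed (419 with all libraries). After curcumin liposomes they were 1 to 10, where 114 to 1088 passed (437 with all libraries). The 10 came without DiI-positive replicate 3, and 1 without DiI-positive replicate 2 or DiI-negative replicate 1 or 3. Averaged they were 8 to 18, where 1149 to 2244 passed (1722 with all libraries). The 18 came without curcumin DiI-positive replicate 3, 9 without curcumin DiI-negative replicate 1, and 8 without empty DiI-negative replicate 1 or 2. With the depth index as a covariate the 14 averaged calls became 6, those of Pld3, Lgmn, Ctsb, Dnase2a, Myd88 and Scimp. Calls over all genes went from 1722 to 432 with that covariate.

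The list of endosomal receptor processing and ligand supply held the largest rises. Of its 11 genes 4 rose and 1 fell, where 12.1% of all genes tested passed in either direction. The list median was 0.60 log2 units. Pld3, an endolysosomal exonuclease that degrades single-stranded nucleic acids, ranged over 12.88 to 13.41 in DiI-positive and 11.59 to 12.35 in DiI-negative libraries, a difference of 1.10 ± 0.13 (log2, SE, limma adjusted p = 0.000489). Lgmn, an asparaginyl endopeptidase that cleaves endosomal Toll-like receptors, was 0.98 ± 0.15 higher (limma adjusted p = 0.00245). Ctsb, the lysosomal protease cathepsin B, was 0.77 ± 0.12 higher (limma adjusted p = 0.00265), and Dnase2a, the lysosomal DNase, 0.66 ± 0.12 higher (limma adjusted p = 0.00434). For these 4 genes the DiI-positive libraries all lay above the DiI-negative ones, where 6.04% of all genes tested were separated. They were named for their small p in this same contrast, so the separation adds no support. Pld4, a relative of Pld3 with the same kind of substrate, was the gene that fell, by 0.25 log2 units (SE 0.06, limma adjusted p = 0.0237). Pld4 lies outside the naming rule and was chosen after its values were seen. These rises run beside the Kupffer cell markers given above, and the part of those cells in them was not tested.

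Adaptors split in direction. Myd88, the adaptor most Toll-like receptors share, read 11.60 to 12.12 in DiI-positive and 12.16 to 12.55 in DiI-negative libraries, a difference of -0.57 ± 0.11 (log2, SE, limma adjusted p = 0.00529). Scimp, a transmembrane adaptor that binds Toll-like receptors in mouse macrophages, read 9.61 to 9.97 in DiI-positive and 8.86 to 9.45 in DiI-negative libraries, a difference of 0.57 ± 0.10 (limma adjusted p = 0.00394). The other 5 adaptors did not pass, in a contrast where 12.1% of all genes tested passed. Myd88 and Scimp were thus of nearly equal size and opposite sign in the same libraries.

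Co-receptors and chaperones gave 1 call each, of 6 and 8 genes, where 12.1% of all genes tested passed. Cd36, a scavenger receptor that hands lipid ligands to Tlr2 and Tlr6, rose by 0.97 ± 0.26 (log2, SE, limma adjusted p = 0.0306), with 11.81 to 13.43 in DiI-positive and 10.82 to 12.04 in DiI-negative libraries. Its call held in 4 of the 12 fits without 1 library. Hsp90b1, the chaperone that folds most Toll-like receptors, fell by 0.24 log2 units (SE 0.07, limma adjusted p = 0.0421), a call kept in 2 of 12 such fits.

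Of 16 proximal kinases and ubiquitin ligases 0 passed in limma with all libraries, where 12.1% of all genes tested passed. The pair with the smallest p were Map3k7, the kinase TAK1, at -0.57 ± 0.19 (log2, SE, limma adjusted p = 0.0733), and Chuk, a subunit of the IkB kinase, at -0.31 ± 0.11 (limma adjusted p = 0.103). Curcumin DiI-positive replicate 3 decided these as well: without it both passed, Map3k7 at -0.74 (limma adjusted p = 0.00563) and Chuk at -0.36 (limma adjusted p = 0.0496). Calls over all genes rose from 1722 to 2244 without that library. Of 4 interferon regulatory factors linked to these receptors Irf5 fell, by 0.36 log2 units (SE 0.07, limma adjusted p = 0.00578), with 13.87 to 14.16 in DiI-positive and 14.20 to 14.55 in DiI-negative libraries. Irf5 also passed after curcumin liposomes alone, at -0.46 ± 0.09 (limma adjusted p = 0.0254). Its averaged call was lost with the depth index as a covariate (-0.37, limma adjusted p = 0.0567).

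Among 14 negative regulators 4 fell and 0 rose, where 12.1% of all genes tested passed in either direction. Tnip3, which binds the NF-kB inhibitor protein A20, fell most, by 0.73 log2 units (SE 0.16, limma adjusted p = 0.0148), with 8.80 to 9.86 in DiI-positive and 9.82 to 10.33 in DiI-negative libraries. Il1rl1, a receptor of the interleukin-1 receptor family, fell by 0.54 (SE 0.15, limma adjusted p = 0.0438). Cd300a, an inhibitory receptor, fell by 0.28 (SE 0.08, limma adjusted p = 0.0413). Socs1, an inhibitor of cytokine signalling, fell by 0.24 (SE 0.07, limma adjusted p = 0.0400). It read 5.68 to 6.06 in DiI-positive and 6.03 to 6.20 in DiI-negative libraries. The call held for Tnip3 in 12 of 12 fits without 1 library, for Cd300a in 3, for Socs1 in 2 and for Il1rl1 in 2. With the depth index as a covariate all 4 calls were lost, with -0.61 for Tnip3 (limma adjusted p = 0.158). Tlr5, the flagellin receptor, lay outside the 10 genes and read 5.47 to 6.26 in DiI-positive and 5.47 to 6.23 in DiI-negative libraries, without a call.

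**Figure D4:**
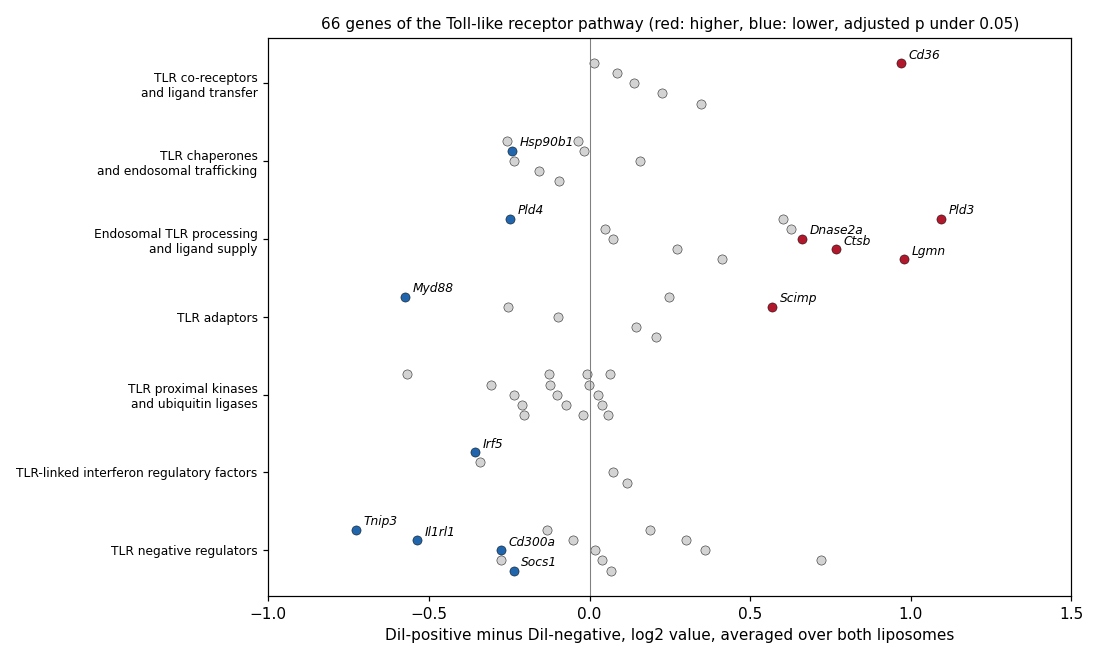
Difference in log2 value, DiI-positive minus DiI-negative with both liposomes averaged (horizontal axis), for 66 genes in 7 lists (rows). Each point is a gene, red or blue and named where it passed the limma test. Pld3 (1.10), Lgmn (0.98) and Cd36 (0.97) lie farthest to the right and Tnip3 (-0.73) farthest to the left.

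For the members that passed, the genes whose library profile came closest were found by the root mean square difference of centred log2 values over the 12 libraries. For Tlr1, which had a root mean square deviation of its own of 0.356, they included Pkig, an inhibitor of protein kinase A, at 0.126 and Pla2g4a, a cytosolic phospholipase, at 0.141. For Tlr4 they were Sqstm1, a receptor of selective autophagy, at 0.109, the peroxiredoxin gene Prdx1 at 0.120 and the transcription factor gene Tcf7l2 at 0.134. Tlr11 did not pass and was added after its values were seen: its closest gene was Sh3bp4 at 0.299, against its own deviation of 0.956. Sh3bp4 ranged over 6.85 to 9.46 in DiI-positive and 8.82 to 9.88 in DiI-negative libraries. These likenesses over 12 libraries that share a sort and 4 groups are descriptions.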

How the data were processed

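Low-input RNA sequencing (SMARTer Ultra Low Input kit, Nextera XT libraries, per the labels' protocols) gave gene-level log2 values, 1 deposited column for each of 12 library codes, with 2 sample records to a code. Per the submitters' processing notes the authors used STAR 2.4.0d, DESeq2 1.8.1 and GRCm38. For counter, annotation and transform no name was given in the sources used here. The deposited log2 values have the form of a shrunken log, so differences of low genes are understated. Group codes were read against the design text of the series. No label says that the libraries are from separate mice. The p-values therefore measure only spread between libraries, in part perhaps technical. Reads per library are unknown. A relative depth index from 299 genes spanned 1.61-fold, was mostly higher in DiI-negative libraries and gives no read number.

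Genes averaging at least 4 on the log2 scale were fitted with limma 3.58.1 (R 4.3.3), all 12 libraries in 1 model with 4 group means, trended prior variance and Benjamini-Hochberg adjustment over 14227 genes (threshold 0.05, 8 residual and 3.51 prior degrees of freedom). Adjusted p-values come from that table unless an alternative is named. The fit was run on simulated data with independent libraries and a planted shift larger than any member difference called. That run checks the code and does not bear on the calls reported. Symbols, coordinates and exon lengths are from GENCODE M21 (GRCm38), and no member overlaps another annotated gene. Promoter sequences are from RefSeq (GRCm38.p6), which matched 8 of 10 members. The members, though chosen by name, and the gene lists were set with earlier results of these data known. From each pathway list, up to 4 called genes, or otherwise the 2 with the smallest p, were named. For each member called, the 3 genes nearest in library profile were sought, of which 1 is not reported here. Alternatives were another filter or none, centring, library weights, the depth index, only the libraries compared, no trend, a block for the replicate number, and libraries left out.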

Additional observations from a re-analysis of the deposited data

How the results depend on the processing

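Counts of members called changed as follows. For gates after empty liposomes the count was 1 as reported, 0 with no filter on low values, 0 with the depth index as covariate and 2 with only the 6 libraries compared (Tlr1 and Tlr12), and 0 to 0 when each library was left out. After curcumin liposomes it was 0 as reported, 1 without curcumin replicate 3 of both gates (Tlr11) and 0 to 2 when each library was left out. With both liposomes averaged it was 2 as reported, 1 with no filter, 1 with the replicate block, 1 with the depth index and 1 to 3 when each library was left out. In the averaged contrast, where it was 1 with a named setting, the member was Tlr1, and the cause was not tested. Without curcumin replicate 3 of both gates it was 3 (Tlr1, Tlr2 and Tlr11). Tlr4 had limma adjusted p of 0.0630, 0.0509 and 0.0532 under no filter, replicate block and depth index. Both curcumin contrasts and their difference gave 0 throughout. No difference passed in the opposite direction in any alternative.

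Same-numbered libraries of different groups showed a correlation over 0.1 in 2 of 18 pairs (-0.11 to 0.33), and the numbers were not taken as pairs. Most of those pairs cross the liposome arms. Same-numbered gates of the same arm correlated at 0.07, 0.03 and 0.33 after curcumin and 0.08, 0.00 and 0.08 after empty liposomes. Other gate pairs of an arm ranged over -0.24 to 0.20 and -0.08 to 0.00. No label says whether such gates shared animals. The replicate block took each number as shared by both arms, and no fit paired the gates within an arm. Yet 8 of 12 libraries correlated best with their own number, a hint from the data and not the design. With the replicate block, the averaged calls of Hsp90b1, Cd300a and Socs1 were also lost (limma adjusted p = 0.0684, 0.0612 and 0.0600). Over all genes the gate calls after empty liposomes, 419 as reported, were 263 with no filter, 789 with library weights, 120 with the depth index and 85 to 263 when each library was left out. After curcumin liposomes 437 became 248, 40 with only the 6 libraries, 74 with the depth index, 706 without curcumin replicate 3 of both gates and 114 to 1088 when each library was left out. Averaged, 1722 became 432 with the depth index and 1149 to 2244 when each library was left out. A fit that leaves out a library assumes that the group's other libraries vary like the rest. Depth in reads is unknown, so limits for low genes such as Tlr9 cannot be given.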

Other observations

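The mean of 8 markers of plasmacytoid dendritic cells, which are known for Tlr7 and Tlr9, was highest in replicate 3 of both curcumin groups. This mean ranged over 8.45 to 10.28 in DiI-positive and 8.36 to 10.27 in DiI-negative libraries. Siglech, which defines these cells in mouse, read 11.28 and 11.48 in replicate 3 of curcumin DiI-positive and DiI-negative cells and 5.79 to 9.08 in the other 10. The list did not move as 1 in these replicate 3 libraries. There Pacsin1 was highest of its group in both gates, at 9.13 and 8.86, and Ly6d lowest of its group in both, at 11.75 and 11.22. In the same libraries Tlr9 read 4.81 and 4.67, within the range of the rest, and Tlr7 read 10.82 and 10.01, its highest and its lowest value of the 12. Unc93b1, which carries the endosomal receptors, was high and even, with group means of 15.17 to 15.34 and an averaged difference of 0.16 that did not pass (limma adjusted p = 0.0982).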
